A study of Mus musculus with 64 samples.

Results

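The fate of pyruvate and lactate was followed through 10 genes that were listed by name, and all 10 were found among the 39017 genes of the count table. They are Ldha and Ldhb, the subunits of lactate dehydrogenase; Slc16a1 and Slc16a3, which encode the monocarboxylate transporters MCT1 and MCT4; Bsg, which encodes their partner basigin; the pyruvate dehydrogenase kinases Pdk1, Pdk2, Pdk3 and Pdk4; and Pdha1, the subunit that these kinases phosphorylate. RNA was sequenced from 8 mouse pancreatic tumor lines, of strain background C57BL/6 mixed: KPC1 and 7 clones that carry a letter each. The clones were isolated from 1 tumor of the KPC model, in which Pdx1-Cre acts in the pancreatic epithelium and switches on mutant Trp53 R172H, so tumor cells of both cultures carry the alleles of the model. Each line gave 4 libraries of tumor cells grown alone (mono-culture) and 4 libraries of GFP-positive tumor cells sorted after 48 h with fibroblasts (coculture), 64 libraries in all. Each clone is a single isolate, and the labels do not say whether the replicates were separate cultures, so p-values within a line measure the spread between these libraries, which may be technical. The labels also do not say whether the mono-cultures passed through the sorter. The study separated the clones by their metabolites into a group 1, which holds clones E, H and V, and a group 2 of 4 clones (M, N, T and K), left KPC1 out of both, and asked how they differ in glycolysis and lactate output.

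Glycolysis ends in pyruvate, which can be reduced to lactate in the cytosol or enter the mitochondrion and be oxidized to acetyl-CoA by the pyruvate dehydrogenase complex. The first route, carried by lactate dehydrogenase A, restores the NAD+ that glycolysis needs, and the lactate leaves the cell through MCT1 or MCT4. MCT1 has a high affinity and moves lactate in either direction, MCT4 is an exporter of glycolytic cells, and both need basigin to reach the plasma membrane. Lactate dehydrogenase B favors the return of lactate to pyruvate. The Pdk kinases switch off the second route by phosphorylating the E1 alpha subunit encoded by Pdha1. Pancreatic tumors are hypoxic, and Ldha, Slc16a3 and Pdk1 are textbook targets of the hypoxia-inducible factor HIF-1.

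Library totals were between 11178721 and 21333683 counts, with a median of 15648009.5, and each of the 64 libraries was most like another of its own line and culture. CPM are counts scaled to a common library size after TMM correction. Of 8 listed epithelial markers, Krt8 and Krt18, keratins of simple epithelia, had mono-culture medians of 990.5 and 1255 CPM. Those of Krt19, Sox9 and Cdh1 were 538.4, 199.7 and 71.79 CPM, and Cdh1 ran from 0.854 to 333.8 CPM. Krt7 and Muc1 had medians of only 1.88 and 2.409 CPM, and Epcam did not pass 0.742 CPM. In coculture the medians of Krt8 (767.9 CPM), Krt19 (317), Muc1 (1.753) and Epcam (0) were lower. Those of Krt18 (1297 CPM), Sox9 (215.9), Cdh1 (84.46) and Krt7 (2.102) were higher. Fibroblast markers were read in both cultures. Of 20 fibroblast markers, the sum ran from 1926 to 13510 CPM over mono-culture libraries and from 3181 to 13380 CPM over coculture libraries, most of it Fn1, Sparc and S100a4, which the tumor cells alone also made. The sum of Dcn, Fap, Postn and Thy1, 4 markers chosen with earlier results known, was at most 0.201 CPM in any line's mono-culture libraries but 14.6 to 155 CPM in coculture libraries. Among the 20, the median fell from 840.9 to 590.8 CPM for S100a4 and from 21.01 to 17.74 CPM for Fbln1. Lum reached a median of only 0.06 CPM in coculture, and the medians of the other listed markers rose. In the bulk libraries, RNA from a few fibroblasts and a change within the tumor cells cannot be told apart, nor can fewer cells of a type and less RNA per cell. The part of fibroblast RNA in the results below was not tested.

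Libraries with the replicate number 4 stood apart for some of the genes. Replicate 4 was the highest of its 4 libraries in 14 of 16 line-culture groups for Ldha, in 14 of 16 for Slc16a3, in 14 of 16 for Pdk1 and in 13 of 16 for Bsg. It exceeded the mean of the other 3 by a median factor of 1.4 for Ldha, 2.41 for Slc16a3, 2.07 for Pdk1 and 1.26 for Bsg. Of all 14134 genes tested, 0.715% had replicate 4 on top in 12 or more groups, against 0.0212%, 0.0849% and 0.156% for replicates 1, 2 and 3. Slc16a1, by contrast, had replicate 4 on top in 3 groups and Pdha1 in 3, with median factors of 1.01 and 0.916. Among 10 hypoxia target genes, 6 had replicate 4 on top in 12 or more groups, with Ankrd37 highest in 16 of 16 and Bnip3, a mitophagy receptor, in 14 of 16, while Vegfa was highest there in 3. The sum of the 4 fibroblast markers in coculture also differed by replicate number, with means over the 8 lines of 42.2, 56.2, 87.7 and 108 CPM for replicates 1 to 4. What replicate 4 shared is not given in the labels, and its part in the results was not tested; values without it are given where they bear on a call.

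**Figure D1:**
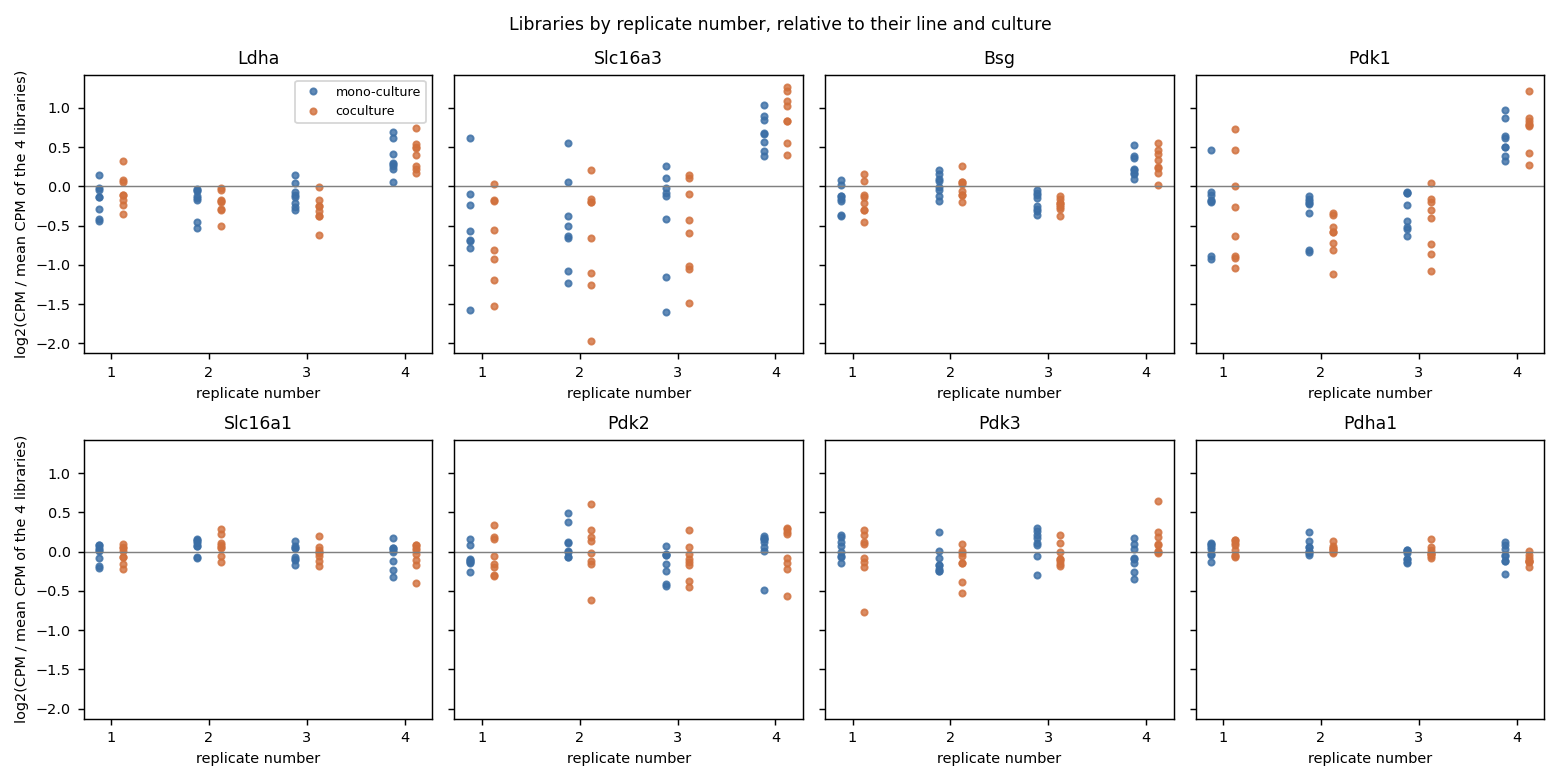
Levels by replicate number. Each point is a library, plotted as the log2 ratio of its CPM to the mean CPM of the 4 libraries of its line and culture (vertical axis) against its replicate number (horizontal axis), for mono-culture (blue) and coculture (orange). For Ldha, Slc16a3, Bsg and Pdk1 the points of replicate 4 all lie above 0; for Slc16a1, Pdk2, Pdk3 and Pdha1 they lie on both sides of it.

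The bases before the transcription starts of the 3 genes that most often peaked in replicate 4 are shown because HIF-1 is known to bind short motifs of this kind; the 3 genes were chosen after their values were seen. Promoter windows of RefSeq (build GRCm38.p6, 250 bases before to 50 after each start) were found for 9 of the 10 genes; Bsg was the missing entry. The 150 bases before the most upstream start in the table are given 5′ to 3′, with ACGTG or GCGTG, read on either strand (CACGT and CACGC on the other), in capitals; CACGTG holds ACGTG on both strands.
Ldha, chr7:46845654-46845803, plus strand: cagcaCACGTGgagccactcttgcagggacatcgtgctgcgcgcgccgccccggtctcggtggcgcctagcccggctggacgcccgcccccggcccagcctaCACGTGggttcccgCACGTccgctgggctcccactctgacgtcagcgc
Slc16a3, chr11:120948917-120949066, plus strand: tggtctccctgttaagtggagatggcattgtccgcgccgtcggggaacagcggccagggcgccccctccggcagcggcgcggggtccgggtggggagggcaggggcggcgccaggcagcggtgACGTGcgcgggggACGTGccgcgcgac
Pdk1, chr2:71873074-71873223, plus strand: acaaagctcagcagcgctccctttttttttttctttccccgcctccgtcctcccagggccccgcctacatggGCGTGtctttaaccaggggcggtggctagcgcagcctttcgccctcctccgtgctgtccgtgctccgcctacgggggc
Ldha held 3 such stretches, Slc16a3 held 2 and Pdk1 held 1. Over the full windows, ACGTG was found in 19.6% of all 32851 promoters, GCGTG in 32.4%, either of them in 43.8% and CACGTG in 7.15%. These percentages count windows, not genes. Of the 12 windows of the members, 1 of Pdk1 and 1 of Pdk2 held neither ACGTG nor GCGTG. All 9 members with a window held ACGTG or GCGTG in at least 1 of their windows, Slc16a1 and Pdha1 among them. The match therefore did not separate the genes that peaked in replicate 4 from those that did not. A match is only a run of letters, not a bound site.

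In mono-culture, per transcript length, Bsg, Ldha, Pdha1 and Slc16a1 were the abundant genes and Ldhb and Slc16a3 the rare ones. The RPKM values (reads scaled for transcript length and library size) had means over the 8 lines of 297 ± 41.2 (SD, n = 8) for Bsg, 109.3 ± 51.1 for Ldha, 68.8 ± 9.57 for Pdha1 and 59.6 ± 25.9 for Slc16a1. The kinases were close to each other, at 8.73 ± 3.13 RPKM for Pdk2, 8.03 ± 3.47 for Pdk1, 5.46 ± 3.32 for Pdk3 and 4.002 ± 3.35 for Pdk4. Ldhb reached 0.637 ± 0.697 RPKM and Slc16a3 0.427 ± 0.596. Ldhb was thus 0.656% ± 0.852 (SD, n = 8 lines) of the summed Ldha and Ldhb RPKM, and Slc16a3 0.802% ± 1.14 of the summed Slc16a1 and Slc16a3 RPKM. The second share is rough, because the ratio of Slc16a3 RPKM to CPM varied 36.5 times over the 16 line-culture means, against 1.08 to 1.12 times for the 8 other members apart from Ldhb (1.52 times).

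All 10 genes differed among the 8 lines in mono-culture (edgeR quasi-likelihood F-test, adjusted p below the threshold of 0.1 used throughout), as did 95.1% of all genes tested. The titles number the libraries, here parted into a sample-number series up to 43 and the rest. All 4 mono-culture libraries of K lay above 43, and all 4 of E, V and N up to 43. KPC1 had 3 of 4 mono-culture libraries above 43 and 3 of 4 coculture libraries up to 43. The order of these lines and the responses of K, V, N and KPC1 are partly tied to this numbering, unexplained in the labels. Ldha, on chr7:46841475-46855627, was lowest in clone K at 203 ± 73.7 CPM (SD, n = 4) and highest in clone N at 711 ± 303 CPM. Its order from the top was N, KPC1, T, E, H, V, M and K, and of the 7 neighboring pairs only KPC1 and T differed beyond their spread (adjusted p = 0.0741). Clone N's mean rests in part on replicate 4, with 525, 494, 676 and 1150 CPM in replicates 1 to 4. Ldhb, on chr6:142490249-142507957, fell into 2 sets: V, H and KPC1 had means of 3.93, 3.05 and 2.67 CPM, and the other lines had at most 0.690 CPM. The step from KPC1 to N was called (adjusted p = 8.1e-05), and so was that from E to clone M, whose 4 mono-culture libraries held no Ldhb read.

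Slc16a1, on chr3:104638668-104658462, was at 431 CPM in N, 399 in T and 392 in E, which did not differ from neighbor to neighbor, and then stepped down to 255 CPM in M (adjusted p = 2.46e-06), with K lowest at 144 ± 20.4 CPM. Slc16a3, on chr11:120948480-120960868, stood apart in KPC1, at 10.7 ± 5.42 CPM against 3.73 ± 2.23 CPM in V, the next line (adjusted p = 0.0157), and ended in K at 0.613 CPM. Bsg, on chr10:79704491-79711969, varied least, from 492 CPM in H to 768 CPM in K, a 1.56-fold range, and no neighboring pair differed (0 of 7).

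Among the kinases, Pdk1 (chr2:71873224-71903858) ran from 32.02 CPM in K to 118.7 CPM in KPC1 with no called step between neighbors. Pdk2 (chr11:95026258-95041354) was highest in M, at 51.4 ± 5.69 CPM, above E at 35 ± 3.11 CPM (adjusted p = 0.012), and lowest in KPC1 at 16.1 ± 1.69 CPM. Pdk3 (chrX:93764607-93832201) was the most finely ordered, with 5 of its 7 steps called, from 29.02 ± 4.17 CPM in KPC1 down to 2.48 ± 0.228 CPM in V, an 11.7-fold range. Pdk4 (chr6:5483351-5496309) ranged 13.7-fold, from 33.9 ± 5.43 CPM in H to 2.48 ± 0.408 CPM in M. Pdha1 (chrX:160122209-160138413) lay between 166 CPM in N and 280 CPM in M. Positions are those of GENCODE M21 on GRCm38. Over all 10 genes, 19 of 70 neighboring pairs differed. The share of such steps over all genes was not computed, so these counts compare the 10 genes only with each other. Pdk2 overlaps the antisense gene Gm11513 and Pdha1 overlaps Map3k15 on the other strand, but these had at most 1 and 10 counts in any library. Slc16a1 overlaps Gm43581 and Gm43585 on its own strand, for which no counts were analysed here.

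**Figure D2:**
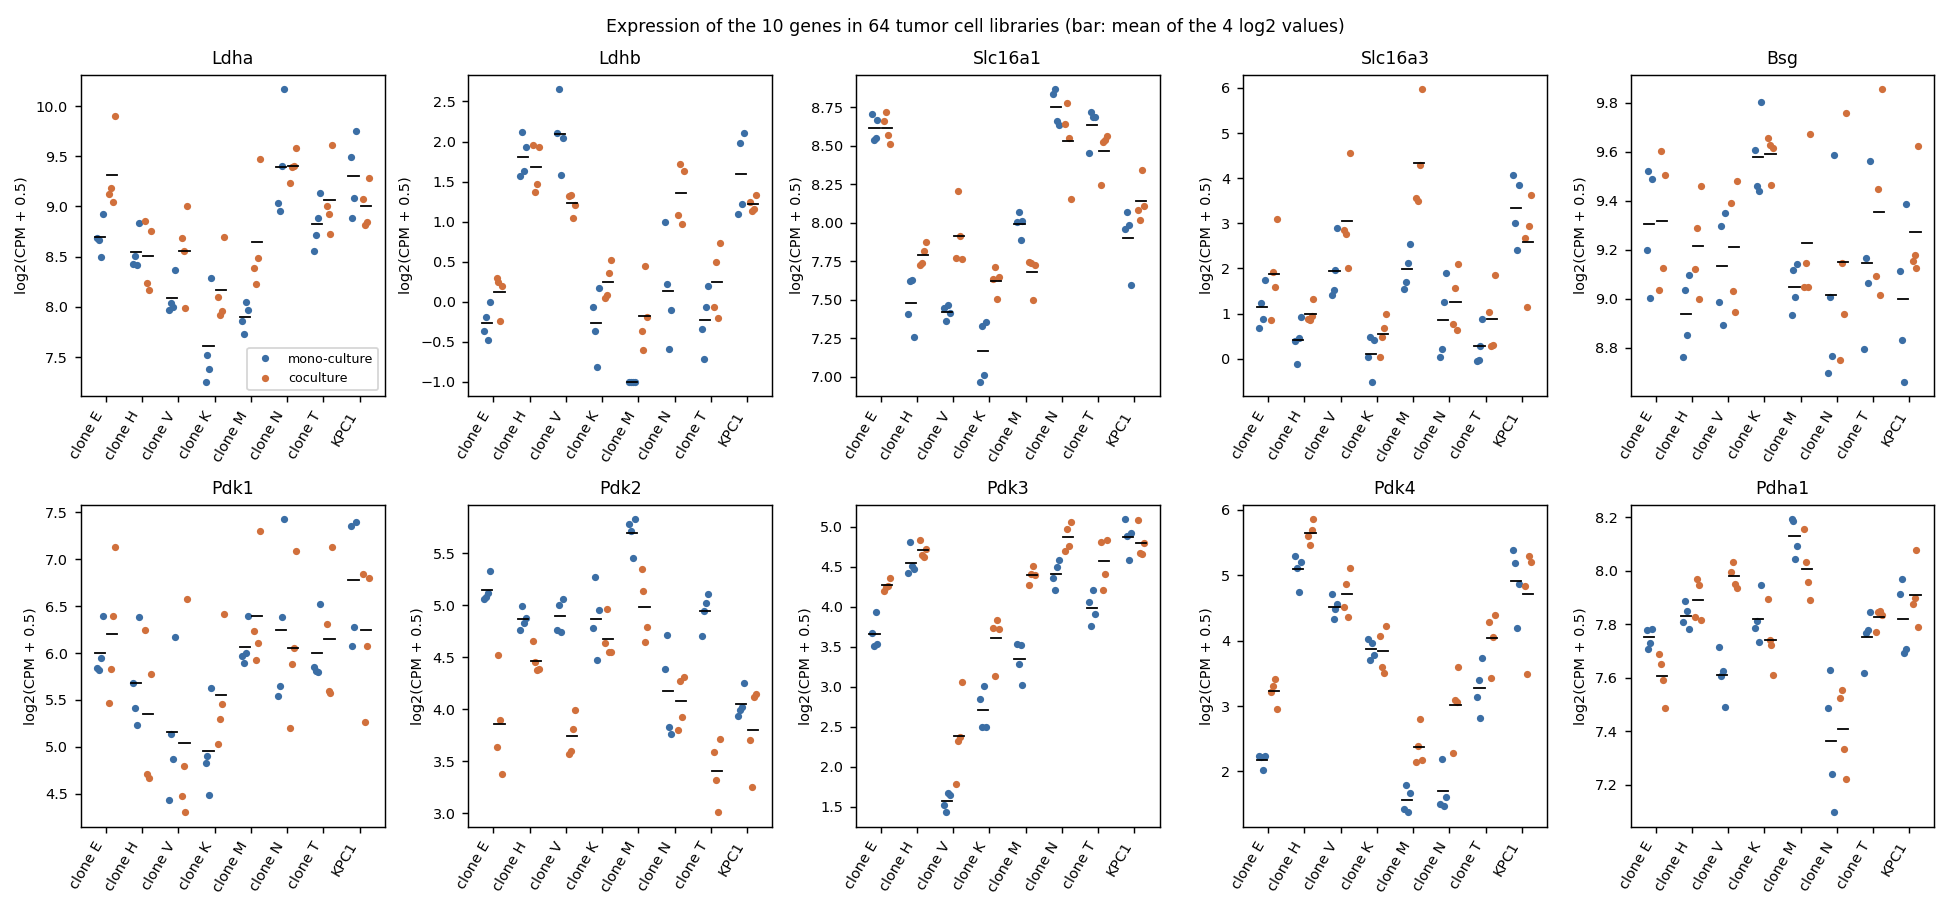
Levels of the 10 genes in every library. Points are libraries on a log2(CPM + 0.5) axis, by line and culture (blue, mono-culture; orange, coculture), and the bar is the mean of 4 log2 values. Ldhb in clone M sits at the bottom in mono-culture, at 0 CPM, Pdk2 falls most in clones E, V and T, and Slc16a3 in clone M has the highest coculture library of that gene, at 62.3 CPM.

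Fibroblast coculture moved 6 of the 10 genes over the 8 lines taken as replicates. Slc16a3, Pdk4, Pdk3, Ldha and Bsg rose and Pdk2 fell, while Ldhb, Slc16a1, Pdk1 and Pdha1 did not pass the test. Of all 16246 genes tested, 26.8% rose and 25.2% fell, beside 5 and 1 of the 10 members. The median change of the members was 0.24 on the log2 scale and that of all genes 0.01.

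Slc16a3, the lactate exporter, rose 1.97-fold (log2 difference 0.98, SE 0.32, adjusted p = 0.0303), being higher in 7 of 8 lines. Its call was lost with limma on log2(RPKM + 1) (difference 0.43, adjusted p = 0.118), for a reason that was not tested. The ratio of Slc16a3 RPKM to CPM varied 36.5 times over the line-culture means. In clone K in mono-culture, replicates 1 to 3 had 8, 13 and 3 Slc16a3 counts but 0 RPKM. Changes of Slc16a3 in CPM should be read with that limit. Ldha rose 1.24-fold (log2 difference 0.31, SE 0.13, adjusted p = 0.0654) with 5 of 8 lines higher. Bsg rose 1.12-fold (log2 difference 0.16, SE 0.05, adjusted p = 0.0288) with all 8 lines higher. The call for Ldha was lost without clone E, K, M, T or V (log2 differences from 0.23 to 0.31) and without replicate 1 or 2, but not without replicate 4 (log2 difference 0.28, adjusted p = 0.0415). Without replicate 4, Slc16a3 had a log2 difference of 0.79 (adjusted p = 0.0434) and Bsg of 0.14 (adjusted p = 0.0492), so the same 6 genes were called.

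The kinases went in opposite directions. Pdk2 fell, being lower in 8 of 8 lines, from a mean of 29.8 to 18.4 CPM (log2 difference −0.69, SE 0.17, adjusted p = 0.0108). Pdk3 rose from 14.9 to 20.3 CPM (log2 difference 0.62, SE 0.14, adjusted p = 0.00605) and Pdk4 from 15.04 to 19.7 CPM (log2 difference 0.65, SE 0.17, adjusted p = 0.0122), each in 7 of 8 lines. Pdk1 had 65.8 CPM in mono-culture and 67.7 CPM in coculture (log2 difference 0.11, SE 0.12, adjusted p = 0.501), and −0.01 without replicate 4. Pdha1 stood at 218.8 and 224.1 CPM (log2 difference 0.05, SE 0.07), Slc16a1 at 276 and 284 CPM (0.12, SE 0.10) and Ldhb at 1.43 and 1.38 CPM (0.60, SE 0.47). None of these 4 passed the test (adjusted p between 0.317 and 0.526). For Ldhb the means and the log2 difference point opposite ways, because the difference is fitted within lines. Ldhb was higher in coculture in 5 of 8 lines, but lower in V, H and KPC1, which had the highest means.

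Line by line, 31 of 80 tests were called, 24 higher and 7 lower, and without replicate 4 the counts were 21 and 7. Whether the libraries of the cultures overlapped is given below as a description. How often they did so over all genes was not computed. The lines answered unequally: Ldha, Ldhb, Slc16a1, Slc16a3, Pdk2, Pdk3, Pdk4 and Pdha1 differed in their response among the 8 lines (adjusted p at most 0.0297), as did 71.3% of all genes, while Bsg (adjusted p = 0.953) and Pdk1 (0.68) did not. Clone V had 7 of 10 genes called where 61.5% of all genes were, and clone M also had 7, where 38.9% were. Clone E had 4 beside 61.3% of all genes, clone T 4 beside 62.2%, clone H 3 beside 44% and clone N 3 beside 37.4%. Clone K had 2 beside 20.5%, and KPC1, the only line that is no member of the clonal groups, had 1, Slc16a1, beside 39.2%.

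**Figure D3:**
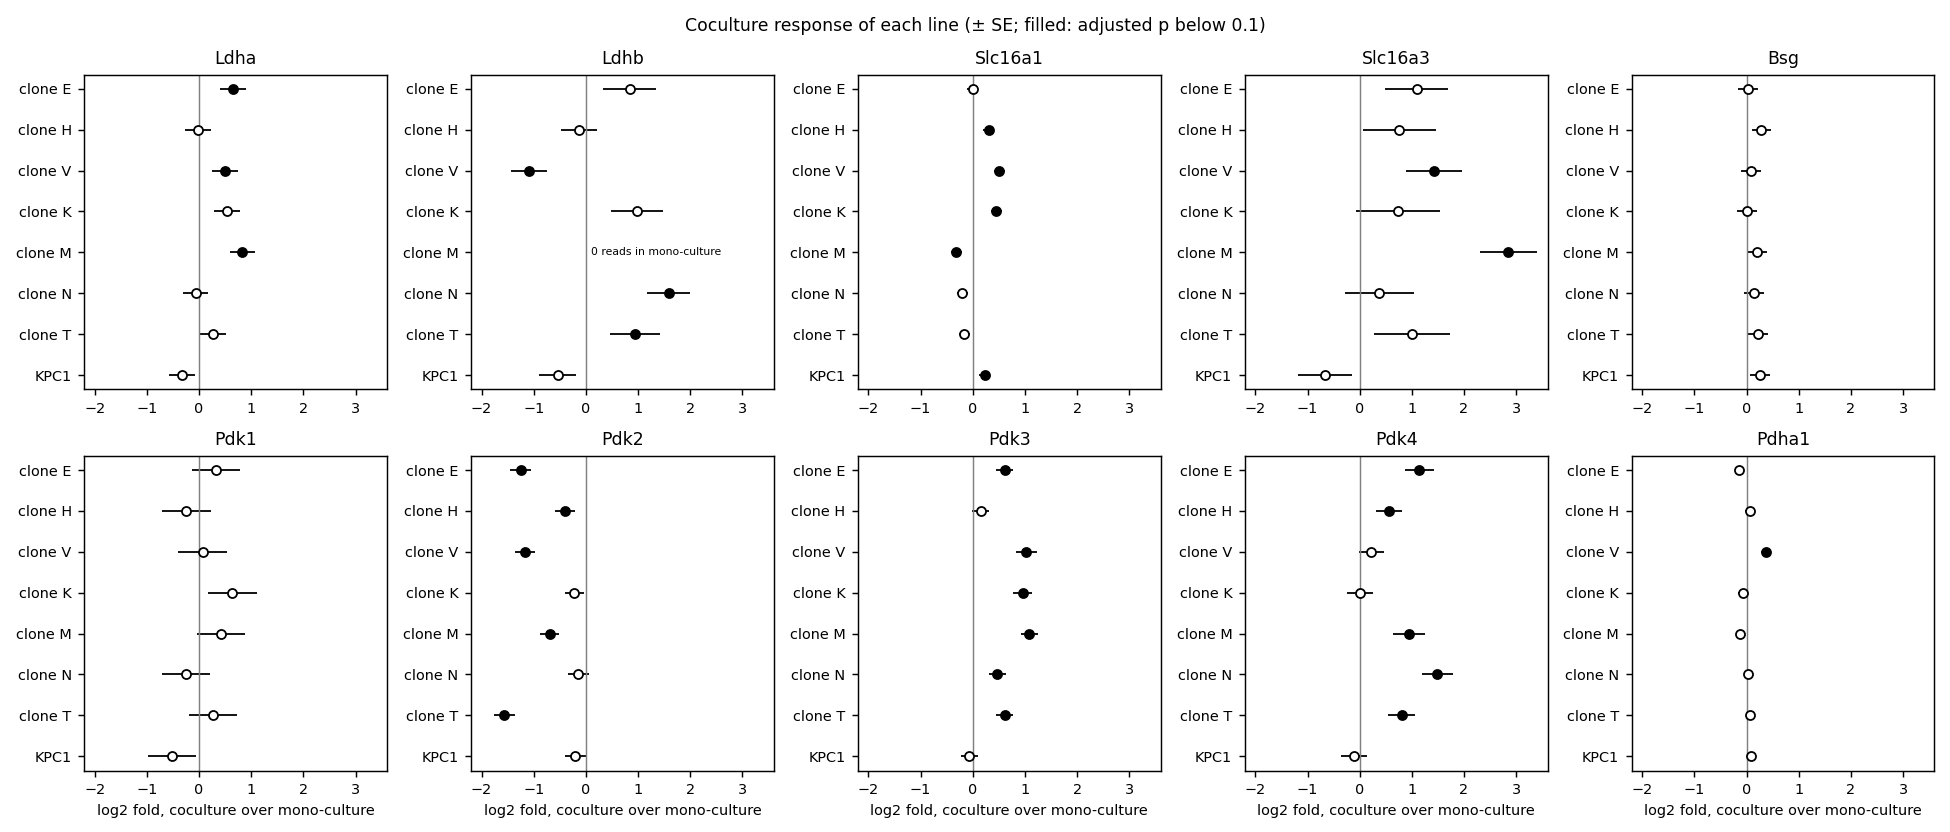
Coculture response of each gene in each line. The horizontal axis is the log2 fold of coculture over mono-culture. Points are lines with their SE, derived from the F statistic of each test, and filled points passed the adjusted p of 0.1. Ldhb in clone M is not drawn because its mono-culture libraries held 0 reads. Pdk2 lies left of 0 in every line and Pdk3 right of 0 in all lines but KPC1.

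Ldha rose in clones M, E and V. In clone M it was 232, 212, 264 and 250 CPM in mono-culture and 334, 300, 357 and 711 CPM in coculture. These did not overlap, and the log2 difference of 0.83 (SE 0.25, adjusted p = 0.00741) became 0.49 (adjusted p = 0.0244) without replicate 4. In clone E the mono-culture values were 412, 406, 361 and 487 CPM and the coculture values 558, 583, 526 and 956 CPM, again apart (log2 difference 0.66, SE 0.24, adjusted p = 0.0202). Clone V overlapped, with 250 to 330 CPM alone and 253 to 512 CPM in coculture (log2 difference 0.50, adjusted p = 0.0772), and its call was lost without replicate 1 (adjusted p = 0.253) or 2 (0.152). Clone K was not called (0.54, adjusted p = 0.137), but was without replicate 4 (0.61, adjusted p = 0.00829). KPC1 had the lowest difference, −0.32 (SE 0.24, adjusted p = 0.321).

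Ldhb, though rare, moved both ways. Clone V, with the highest mono-culture level, went from 3.80, 5.79, 2.50 and 3.62 CPM to 2.01, 2.03, 1.57 and 1.81 CPM. It fell 2.13-fold without overlap (adjusted p = 0.00696). In clone M the 4 mono-culture libraries held 0 reads and the coculture libraries 23 together, 0.276, 0.156, 0.864 and 0.373 CPM, which is at least 9.02-fold higher when 3 counts over the mono-culture group are taken as the floor. Ldhb also rose in N, from 0.690 to 2.12 CPM (log2 difference 1.58, SE 0.41, adjusted p = 0.00276), where 1 mono-culture library reached 1.5 CPM and overlapped the coculture range (2.38 without replicate 1, adjusted p = 0.000842), and in T, from 0.374 to 0.726 CPM (adjusted p = 0.0932), where the call was lost without replicate 1, 2 or 4 (adjusted p from 0.129 to 0.506). These levels lie near the floor, and the 4 fibroblast markers were at 72.0 CPM in the coculture libraries of M, 97.4 in N and 83.5 in T. In the lines with no call for a rise they were at 90.9 CPM in K, 66.8 in H, 60.8 in KPC1, 60.7 in E and 56.7 in V.

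Slc16a1 rose in V, K, H and KPC1 and fell in M. Clone V went from 174, 164, 176 and 170 CPM to 218, 295, 241 and 216 CPM (log2 difference 0.51, SE 0.11, adjusted p = 7.15e-05). Clone K went from 124, 160, 128 and 163 CPM to 198, 210, 181 and 200 CPM (0.45, SE 0.11, adjusted p = 0.00151). In both the 2 cultures were apart. These lines had the lowest mono-culture levels, and a link of response with starting level was not tested. Clone H (0.31, adjusted p = 0.02) and KPC1 (0.23, adjusted p = 0.09) lost their calls without replicate 4 (adjusted p = 0.174 and 0.342), and KPC1 also without replicate 1 (0.132) or 3 (0.323). The KPC1 call was lost as well by edgeR with the sample-number series as a covariate (adjusted p = 0.158) or with no filter (0.214). Clone M fell, from 257, 268, 236 and 258 CPM to 214, 213, 181 and 211 CPM, without overlap (−0.31, SE 0.11, adjusted p = 0.0191, and 0.104 without replicate 3).

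Slc16a3 rose most in clone M, from 2.41, 2.76, 3.87 and 5.29 CPM to 11.4, 10.8, 19.2 and 62.3 CPM. The cultures were apart at every library, and the 7.22-fold rise (log2 difference 2.85, SE 0.55, adjusted p = 6.89e-05) was 2.20 on the log2 scale without replicate 4 (adjusted p = 0.000303). In the same clone Slc16a1, the other transporter, fell. Clone V rose from 2.17, 2.36, 3.43 and 6.97 CPM to 6.75, 6.28, 3.56 and 23.1 CPM, with overlap (log2 difference 1.42, SE 0.54, adjusted p = 0.0225; 1.06 and adjusted p = 0.0404 without replicate 4). KPC1, highest alone, was at 16.4, 7.52, 4.79 and 13.9 CPM and then at 5.86, 1.70, 7.12 and 11.8 CPM (log2 difference −0.66, SE 0.52, adjusted p = 0.345), and this became a call for a fall without replicate 4 (−0.94, adjusted p = 0.0922). Bsg was called in 0 of 8 lines and Pdk1 in 0 of 8, by edgeR without a replicate block. There no unadjusted p was below 0.05 for either, and with DESeq2 no adjusted p was below 0.242 for either. By edgeR with a replicate block, Bsg was called higher in H (adjusted p = 0.0548) and KPC1 (0.0748). Pdk1 was called in no line with the block (lowest adjusted p = 0.152, in K).

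Pdk2 fell in T, E, V, M and H. In clone T it went from 25.5, 30.3, 31.99 and 33.9 CPM to 11.5, 9.46, 7.57 and 12.6 CPM, a 2.96-fold fall (log2 difference −1.56, SE 0.20, adjusted p = 3.48e-09). Clone E went from 32.9, 33.3, 34.2 and 39.6 CPM to 11.98, 22.4, 14.4 and 9.89 CPM (−1.25, SE 0.19, adjusted p = 3.4e-07). Clone V went from 26.6, 31.6, 26.3 and 32.9 CPM to 11.4, 11.6, 13.6 and 15.4 CPM (−1.17, SE 0.19, adjusted p = 1.35e-06). In each of these lines every coculture library lay below every mono-culture library. The same held for M (51.4 to 31.7 CPM, −0.70, adjusted p = 0.00334) and for H (28.7 to 21.7 CPM, −0.40, adjusted p = 0.0922), whose call was lost without any of the 4 replicates (adjusted p from 0.1001 to 0.224). In K, N and KPC1 the cultures overlapped, with log2 differences of −0.22, −0.14 and −0.20 that were not called.

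Pdk3 rose in M, V, K, T, E and N, and in all 6 the libraries of the cultures did not overlap. Clone M went from 11.1, 9.26, 10.97 and 7.66 CPM to 18.9, 20.7, 22.3 and 20.7 CPM, a 2.12-fold rise (log2 difference 1.08, SE 0.17, adjusted p = 1.79e-06). Clone V, lowest of all lines, went from 2.38, 2.20, 2.68 and 2.65 CPM to 2.94, 4.53, 4.70 and 7.82 CPM (1.02, SE 0.20, adjusted p = 1.92e-05). Clone K rose 1.94-fold (adjusted p = 5.2e-05), and T, E and N rose between 1.38- and 1.53-fold, N losing its call without replicate 2 (adjusted p = 0.158). Clone H (0.15) and KPC1 (−0.07), the lines with the most Pdk3 in mono-culture, were not called. A link of response with starting level was not tested.

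Pdk4, a kinase known for its rise in fasting and on fatty acid fuel, rose in N, E, M, T and H. Clone N went from 2.32, 4.08, 2.28 and 2.57 CPM to 4.39, 8.05, 7.83 and 11.6 CPM, a 2.80-fold rise without overlap (log2 difference 1.49, SE 0.30, adjusted p = 0.00013). Clone E went from 4.21, 4.17, 3.54 and 4.21 CPM to 8.82, 9.39, 10.2 and 7.24 CPM, also without overlap (1.14, SE 0.28, adjusted p = 0.000458). In M the rise was 1.93-fold (adjusted p = 0.0139, and 0.146 without replicate 3) and in T 1.75-fold. In H, the line with the most Pdk4, it was 1.48-fold (adjusted p = 0.0605, with 0.226 without replicate 3 and 0.179 without replicate 4). Pdha1, the kinases' substrate, was called in 1 of 8 lines, clone V, where it rose from 210, 194, 197 and 179 CPM to 255, 261, 247 and 244 CPM (0.37, SE 0.08, adjusted p = 0.000178).

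Per length, the makeup of the kinases shifted with coculture. The kinase shares of a line sum to the whole, so they are not independent, and a share can rise without its gene. In KPC1 the Pdk3 share rose although mean Pdk3 went from 10.71 to 9.93 RPKM. Pdk2 made up 35.4% ± 14.2 (SD, n = 8 lines) of the summed Pdk RPKM in mono-culture and 20.9% ± 8.10 in coculture, a mean difference of −14.5 percentage points (SD 10.04; exact two-sided permutation test over sign flips, p = 0.0156, 0.0469 after Benjamini-Hochberg adjustment over 6 shares). Pdk3 went from 19.6% ± 9.15 to 27.3% ± 8.96, higher in 8 of 8 lines (7.75 points, SD 3.97; exact permutation p = 0.00781, the smallest that 8 lines allow, adjusted 0.0469). Pdk4 went from 15.1% ± 11.3 to 20.1% ± 13.4, higher in 7 of 8 lines (5.02 points, SD 4.50; exact permutation p = 0.0312, adjusted 0.0625), a call that was lost without E, H, V, N, T or replicate 4 (adjusted p = 0.125 in each). Pdk1 held 29.9% and 31.7% (exact permutation p = 0.508). The Pdk2 share fell furthest in E, from 43.5% to 18.2%, and in T, from 35.6% to 11.8%, and in KPC1 it was 12.55% and 12.85%. The Slc16a3 share was 0.802% and 2.07% (exact permutation p = 0.258) and the Ldhb share 0.656% and 0.537% (exact permutation p = 0.844). Neither passed, although the Slc16a3 share did without KPC1 (1.66 points, exact permutation, adjusted p = 0.0312).

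**Figure D4:**
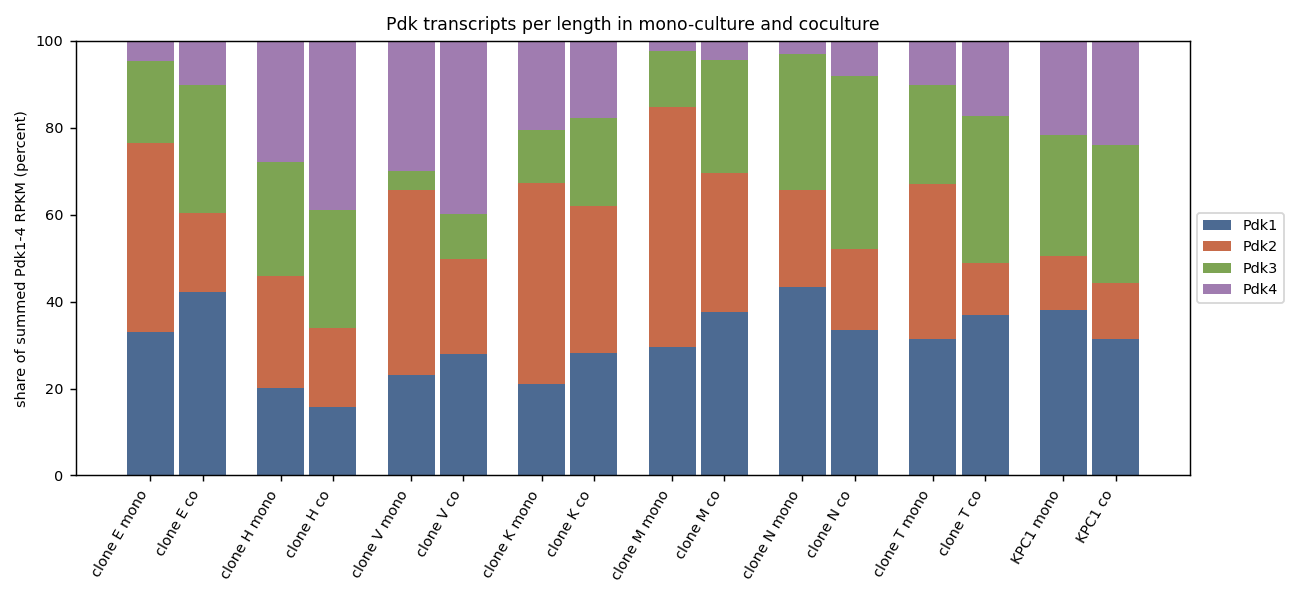
Shares of the 4 kinases in summed Pdk RPKM. Each bar is the mean RPKM of 4 libraries of a line and culture, stacked to the whole. The Pdk2 band narrows in coculture in every line but KPC1, most in clones E and T, and the Pdk3 band widens in all 8 lines.

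Group 1 and group 2 clones were compared in mono-culture with the clone as replicate, 3 against 4. By edgeR, 0 of the 10 genes were called, as were 0% of 14829 genes; no member and 766 of all genes had an unadjusted p below 0.05, and DESeq2 called 0.812% of all genes but 0 members. The smallest p belonged to Ldhb, with 0.340 CPM in E, 3.05 in H and 3.93 in V, against 0 CPM in M, 0.690 in N, 0.374 in T and 0.356 in K (log2 difference 2.79, SE 1.26, unadjusted p = 0.0605, adjusted p = 0.888). Clone E lay within the range of group 2. Pdk4 was next, with 4.03, 33.9 and 22.6 CPM against 2.48, 2.81, 9.45 and 14.2 CPM in the same order (1.47, SE 0.84, adjusted p = 0.888). Ldha averaged 356 ± 73.4 CPM in group 1 (SD, n = 3) and 403 ± 234 CPM in group 2 (n = 4), with a log2 difference of −0.18 (SE 0.45). The groups overlapped for all 10 genes, and the share of all genes that did so was not computed. A p that misses the threshold with 3 against 4 clones does not show that the groups are alike. The shares of Ldhb (1.33% ± 1.15 and 0.147% ± 0.12; exact permutation p = 0.114), and of the other paralogs, had adjusted p of at least 0.6 between groups. The smallest exact permutation p that 3 against 4 clones allow is 0.0286, or 0.171 when a single share is adjusted over 6, so no single share could have passed. The difference in coculture response between the groups was called for 0 of 10 genes by edgeR, with no unadjusted p below 0.05 (lowest 0.0624, Ldhb), beside 0.00618% of all genes. DESeq2 also called 0 of 10, beside 1.43% of all genes.

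Genes around the pathway were followed through lists chosen with earlier results known, with the same coculture test, in which 26.8% of all genes rose and 25.2% fell. Of 7 other genes of the pyruvate dehydrogenase complex and its phosphatases, 3 rose and 1 fell (median log2 difference 0.13): Dld, the E3 subunit, by 0.64, the phosphatase Pdp1 by 0.32 and Pdhx, the E3-binding protein, by 0.31, against Pdpr, the phosphatase's regulatory subunit, at −0.66 (adjusted p = 0.029). Of 3 genes of mitochondrial pyruvate entry and carboxylation, Mpc1, a subunit of the mitochondrial pyruvate carrier, fell (−0.79, SE 0.19, adjusted p = 0.00875) and none rose. Of 5 genes for alanine and malic enzyme routes, 3 rose, led by Gpt2, the mitochondrial alanine aminotransferase, from 55.8 to 123.5 CPM in 8 of 8 lines (1.19, SE 0.19, adjusted p = 0.00172), with Me3 (0.33) and Me1 (0.16).

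Of 9 genes of the shuttles that carry cytosolic NADH into the mitochondrion, the other way to restore NAD+, 3 rose and 2 fell. Got1, the cytosolic aspartate aminotransferase, rose by 0.99 (SE 0.17, adjusted p = 0.00241), Gpd2 by 0.47 and Mdh2 by 0.35. Gpd1, the cytosolic glycerol phosphate dehydrogenase, fell from 2.62 to 0.518 CPM in 8 of 8 lines (−2.09, SE 0.38, adjusted p = 0.00287), and Mdh1 fell (−0.55, adjusted p = 0.0126). Of 3 other lactate dehydrogenase and transporter family genes tested, out of 5 listed, Ldhd, which acts on D-lactate, fell (−1.20, adjusted p = 0.0105). Pkm, the pyruvate kinase that feeds the branch point, was at 2037 and 2047 CPM and did not pass (adjusted p = 0.71). Of 10 hypoxia target genes, 7 rose and 0 fell (median log2 difference 0.48), with the largest changes for Adm (2.56, from 0.16 to 0.709 CPM), Ero1a (1.17) and P4ha1 (0.68). Replicate 4 was highest in 12 of 16 groups for Adm, 12 for Ero1a and 14 for P4ha1. None of the genes of these lists was called between group 1 and group 2 by edgeR. As 0% of all 14829 genes tested were called, this says nothing particular about the lists.

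Over the 16 line-culture means, the members themselves varied together in part. The Pearson correlation of mean log2 CPM was 0.753 for Ldha with Slc16a1, 0.707 for Ldha with Pdk1, 0.788 for Ldhb with Pdk4 and −0.662 for Ldha with Pdk2. These are descriptions over 16 points that share lines in pairs. Among 12035 genes of at least 1 CPM, the 3 most like Ldha were Nol12 (r = 0.959), Snrnp40 (0.952) and Cep55 (0.947), and the nearest to Slc16a1 were Mpp6 (0.937), Pkp4 and Ston2. Ldhb was nearest to Adamts14 (0.943), Sox7 and Rundc3a, Slc16a3 to Parp16 (0.84), Arhgef4 and Ndufv1, and Bsg to Zfhx4 (0.916), Mfsd1 and Atp6v0c. Pdk1 was nearest to Gm4462 (0.9), Serp2 and Prdx3, Pdk2 to Pxmp4 (0.958), Snx21 and Rab11b-ps2, and Pdk3 to Bbx (0.911), Ptgr1 and Dbt. Pdk4 was nearest to Ppm1e (0.941), Dmrta1 and Gpr126, and Pdha1 to Uqcrfs1 (0.884), Hiatl1 and Nat6.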

How the data were processed

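Poly(A) RNA of 64 tumor cell libraries was sequenced in a strand-specific, paired-end 76 bp format. The deposited counts per gene were made by the authors with featureCounts, and the deposited RPKM values were scaled by the authors for gene length and depth; the submitters' processing notes name mm10 and edgeR, and the aligner and annotation are not given in the sources used here. Groups 1 and 2 follow the study's assignment of clones. The genotype of the model is not reported here in full. The 10 genes, the lists and the tests were chosen with earlier results of these data known.

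Counts were tested with edgeR 4.0.16 (R 4.3.3), TMM scaling, filterByExpr (minimum count 10, minimum total 15), the quasi-likelihood F-test and Benjamini-Hochberg adjustment over all genes, with a threshold of 0.1. The counts of the 4 replicates were summed per line and culture for the coculture response with line as a block (16 sums, 16246 genes), for group 1 against group 2 (7 sums, 14829 genes) and for the difference in response between groups (14 sums, 16172 genes). Differences among lines and within single lines used all 64 libraries (14134 genes). All 10 genes passed each filter. Each SE of a log2 difference was derived from its test, as the absolute difference divided by the square root of the F statistic. Shares of RPKM were compared by exact two-sided permutation tests. Named genes were the 10 members in full and, of each list, up to 3 called genes of largest change in each direction. Similar genes were the 3 of highest Pearson r over the 16 group means. Alternatives were RLE scaling, no filter, DESeq2 1.42.0, and limma 3.58.1 on log2(RPKM + 1) and log2(RPKM + 0.1). Others were a threshold of 0.05, a replicate block, the sample-number series (up to 43, or above) as a covariate and leaving out each replicate or line. Scripts were tested on simulated data. Totals limit precision for genes of few reads such as Ldhb, and the floor of 3 counts covers counting error only.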

Additional observations from a re-analysis of the deposited data

Results flagged for a closer look

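Of 160 sets of 4 libraries (10 genes in 16 line-culture groups), 16 held a library far from the other 3 by Dixon's criterion, where chance flags about 1 in 20 sets, or 8 here. In 11 of the 16 the library was replicate 4. For Ldha these were the coculture library of clone E at 956.4 CPM, that of M at 710.9 CPM and the mono-culture library of V at 329.6 CPM. For Slc16a3 they were coculture libraries of H at 1.992 CPM, M at 62.33 CPM and V at 23.11 CPM. Bsg stood high in coculture of M at 815.6 CPM and KPC1 at 788.4 CPM, and Pdk1 in coculture of M at 156.9 CPM and V at 94.83 CPM and in mono-culture of T at 91.47 CPM. The others were low values of Slc16a1 in coculture of M (180.6 CPM) and in T in mono-culture (350.0 CPM) and coculture (303.4 CPM), a low Pdk4 value in mono-culture of E (3.544 CPM) and a high one in mono-culture of N (4.079 CPM). What sets these libraries apart was not tested.

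The coculture response differed among the 8 lines for 8 genes by the interaction term of edgeR's quasi-likelihood test over all 64 libraries. Of all 14134 genes tested, 71.3% were called in the same test, so such a call is common. The adjusted p was 0.02968 for Ldha, 5.482e-06 for Ldhb, 3.356e-06 for Slc16a1, 0.009607 for Slc16a3, 7.812e-06 for Pdk2, 0.0001255 for Pdk3, 0.001683 for Pdk4 and 0.004335 for Pdha1.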

How the results depend on the processing

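Across the alternatives run, 78 of 80 counts of members called stayed within 1.5 times the reported count, and 187 of 200 coculture values over lines, 283 of 310 values in single lines, 191 of 209 group values and 137 of 150 shares kept their direction and side of the threshold. The exceptions in counts were group 1 against group 2 with libraries in place of clones as replicates, with 1 gene called (Pdk4), and the same with a replicate block, with 2 (Ldhb and Pdk4), beside 31.8% and 30.2% of all genes; libraries of a clone are not independent clones. The causes of the changes below were not tested.

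Leaving out 1 line or replicate at a time gave log2 coculture differences from −0.0112 to 0.188 for Pdk1 and from −0.00673 to 0.0719 for Pdha1. The group differences ran from −0.40 to 0.25 for Ldha, −0.29 to 1.11 for Slc16a3, −0.188 to 0.0411 for Bsg, −0.25 to 0.26 for Pdk2, −0.80 to 0.45 for Pdk3 and −0.17 to 0.0768 for Pdha1. Coculture differences in shares ran from −0.197 to 0.0822 points for Ldhb, 0.248 to 1.66 for Slc16a3 and 4.18 to 6.14 for Pdk4, and group differences in shares from −0.0892 to 0.508 for Slc16a3, −8.50 to 3.10 for Pdk2 and −8.04 to 2.74 for Pdk3. The group difference changed sign for Pdk2 on log2(RPKM + 1) (0.0175) and log2(RPKM + 0.1) (0.0264), for Slc16a3 in libraries numbered up to 43 (−0.0400) and in coculture (−0.52), and in coculture for Slc16a1 (0.0222) and Pdha1 (0.0871).

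Replicate numbers are shared by the groups, but 22 of 32 same-numbered pairs of mono-culture and coculture libraries deviated together with a correlation above 0.1 (lowest −0.107, median 0.206). Since pairing was to be assumed only if every pair passed 0.1 and the labels tie no number to a culture or day, the numbers were not taken as pairs. With a replicate block the single-line calls went from 31 to 38, of which 29 were higher and 9 lower. The share of all genes called in single lines with the block was not computed. The response differed among the lines for 74.7% of all genes with the block, against 71.3% without it. The calls gained were Ldha in K (0.55, adjusted p = 0.00598), Bsg in H (0.28, 0.0548) and KPC1 (0.26, 0.0748), Slc16a3 in E (0.99, 0.028), T (0.99, 0.0757) and, lower, KPC1 (−0.80, 0.0579), and Pdha1, lower, in E (−0.15, 0.0911), and none was lost. The block also moved the called steps between neighboring lines from 19 to 23. Low depth limits Ldhb and Slc16a3.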
